A study of Mus musculus with 8 samples.

Results

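The genes described here are 50 genes of elastic fibres, matrix proteoglycans and matrix crosslinking, chosen by name, whose RNA levels were read from sequencing libraries of 3T3-L1 cells after Fto knockdown. The 50 symbols each had 1 row among the 23699 rows that every library lists. 3T3-L1 is a mouse fibroblast line whose cells can be induced to become adipocytes, and these were uninduced preadipocytes 2 days past confluence. The siFto group (4 libraries) had received 3 Stealth siRNAs against Fto, and the siCtr group (4 libraries) 3 non-targeting ones, each as a pool at 40 nM in a lipid reagent over 24 h before confluence. Both groups had therefore been transfected, no untransfected cells were analysed here, and the labels do not say whether the libraries of a group are separate cultures. P-values then measure the spread between these libraries, which can be technical.

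Elastic fibres consist of a core of crosslinked elastin laid on a scaffold of fibrillin microfibrils, and fibulins, emilins and microfibril-associated proteins organise the assembly. Lysyl oxidases crosslink elastin and collagen, while lysyl hydroxylases and the chaperone Serpinh1 act on collagen before it leaves the cell. Small leucine-rich proteoglycans bind collagen fibrils, versican binds hyaluronan, and syndecans and glypicans carry heparan sulphate at the cell surface. Preadipocytes make a fibroblast-like matrix that is remodelled when they turn into fat cells.

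Fto itself, an RNA and DNA demethylase, held 13.8, 10.7, 12.3 and 11.6 FPKM in siFto libraries 1 to 4, against 54.6, 55.4, 56.2 and 55.2 FPKM in siCtr libraries 1 to 4 (log2 fold change -2.15, SE 0.063, limma adjusted p = 7.3e-08). FPKM are fragment numbers scaled by transcript length and by the mapped total of the library. Fold changes here are differences of mean log2(FPKM + 0.5), siFto minus siCtr, a scale that understates the change of low genes. Of the lists of other cell types, 4 of 4 epithelial markers lay under 0.1 FPKM on average, 0 of 4 endothelial markers reached 1 FPKM, and the macrophage genes Emr1 and Ptprc were listed at 0 and below 0.01 FPKM on average. The summed macrophage list was 13.0 to 14.4 FPKM in siFto libraries and 15.8 to 21.8 FPKM in siCtr libraries, mostly Lyz2, which was called lower (-0.50, adjusted p = 0.00316). Cd68, of the same list, averaged 1.20 FPKM in siFto and 0.974 FPKM in siCtr libraries and was not called (0.21, limma adjusted p = 0.404). Csf1r averaged 0.803 FPKM over the 8 libraries. Of 8 mature adipocyte markers 3 reached 1 FPKM. The list of 8 summed to 54.2 to 66.0 FPKM in siFto libraries and 51.7 to 83.3 FPKM in siCtr libraries, mostly Fabp4. In siCtr4 Adipoq held 9.19 FPKM, against 2.77 to 3.20 FPKM in the other siCtr libraries. The smooth muscle list summed to 375.5 to 453 FPKM in siFto and 398 to 464 FPKM in siCtr libraries, almost entirely Acta2. Of 5 chondrocyte and osteoblast markers Sox9 alone reached 1 FPKM, with list sums of 29.8 to 31.5 FPKM in siFto and 26.5 to 31.6 FPKM in siCtr libraries. The fibroblast list summed to 8845 to 9789 FPKM in siFto and 8279 to 8704 FPKM in siCtr libraries, mostly Col1a1, Col1a2, Vim and Dlk1. Of its 7 tested genes 3 were called higher, Col1a1 (log2 fold change 0.24), Col1a2 (0.22) and Thy1 (0.29). The 2 called lower were Pdgfra (-0.21) and Pdgfrb (-0.14). Over all tested genes 6.97% were called higher and 12.3% lower. In bulk RNA, fewer cells of a type and less RNA per cell cannot be told apart. The part of these cell type lists in the results below was not tested.

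The matrix genes spanned a wide range of levels. Bgn, which encodes the small proteoglycan biglycan, was the highest with 2054 ± 50.1 FPKM in siFto and 2187 ± 90.6 FPKM in siCtr libraries (SD, n = 4 each), 21.8 to 23.5% of the summed FPKM of the 50 genes in a library. Mean FPKM lay over 500 for 7 genes, from 100 to 500 for 7, from 10 to 100 for 27, from 1 to 10 for 5 and under 1 for 4. The first 4 places, Bgn, Pcolce, Dcn and Serpinh1, were in the same order in both groups. Lox ranked 7 in siFto and 5 in siCtr libraries, and Efemp2 ranked 11 in siFto and 8 in siCtr libraries. The 50 genes together made up 1.97 ± 0.0225% of all FPKM in siFto and 2.04 ± 0.0187% in siCtr libraries. For members at 1 FPKM or more, the median upper Cufflinks bound lay 2.97 to 3.33% above the value, which covers counting error alone.

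**Figure D1:**
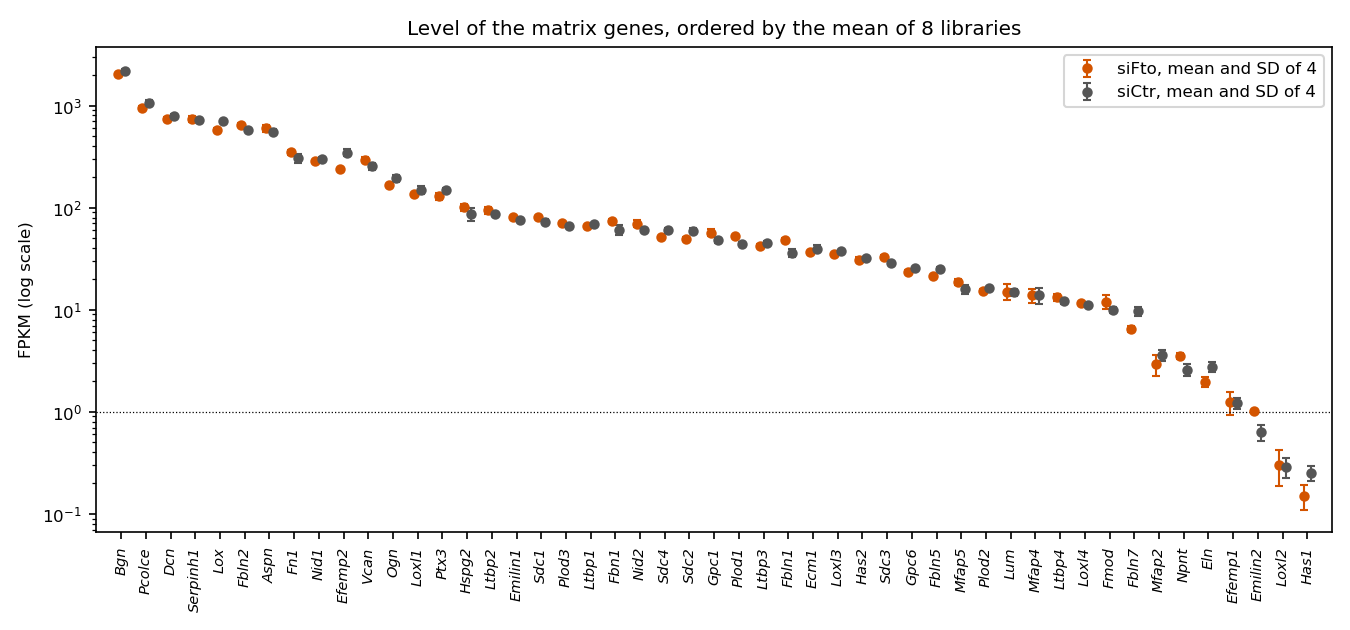
Mean FPKM with SD (log axis) of 49 of the 50 matrix genes in 4 siFto and 4 siCtr libraries, ordered by the mean of the 8 libraries; Fbn2, below 0.01 FPKM in each library, is not drawn, and the dotted line marks the filter at 1 FPKM. Bgn stands highest at about 2054 and 2187 FPKM, and the groups lie close together along the whole order.

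Of the 50 genes, 46 had a mean of at least 1 FPKM and entered the test over 11398 genes, and 20 of these were called at an adjusted p under 0.05. The 10 called higher with Fto siRNA were Fbln1, Npnt, Fbn1, Plod1, Gpc1, Vcan, Nid2, Sdc3, Fbln2 and Sdc1. The 10 called lower were Efemp2, Fbln7, Eln, Sdc2, Lox, Fbln5, Sdc4, Ogn, Ptx3 and Pcolce. Calls thus took in 21.7% of the tested members in each direction, against 6.97% of all tested genes called higher and 12.3% called lower, 19.3% in all. At a mean level of 10 FPKM or more, calls took in 8.24% higher and 12.9% lower, against 9 and 8 of the 41 members at that level. The groups did not overlap for 7 members that were higher and 13 that were lower with Fto siRNA, against 9.08% and 15.1% of all tested genes. The members were chosen with earlier results of these data known, so the shares here are a description and no test of the list.

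The changes were small and ran both ways, so that the median log2 fold change of the 46 members was 0.0080, against -0.017 over all tested genes. The median absolute log2 fold change was 0.17 for members and 0.084 for all tested genes, and the members ranged from -0.55 (Efemp2) to 0.42 (Fbln1). In the fits that left out 1 library, 9 of the 20 calls were made each time: Fbln1 and Plod1 higher, and Efemp2, Fbln7, Eln, Sdc2, Lox, Fbln5 and Sdc4 lower. The count called higher was 4 without siFto1, and 6 each without siFto3, siCtr1 or siCtr2. With no filter on low values 3 members were called higher and 6 lower: the calls of Eln, Fbn1, Fbln2, Pcolce, Ogn, Vcan, Ptx3, Nid2, Npnt, Sdc1, Sdc3 and Gpc1 were lost (adjusted p 0.0731 to 0.209), and Emilin2, which the filter had left out, was called. Median-ratio scaling and quantile normalization gave 13 higher and 10 lower, and 13 higher and 12 lower; over all tested genes they raised the share of higher calls to 47.6 and 47.4%, against 36.2% without scaling.

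**Figure D2:**
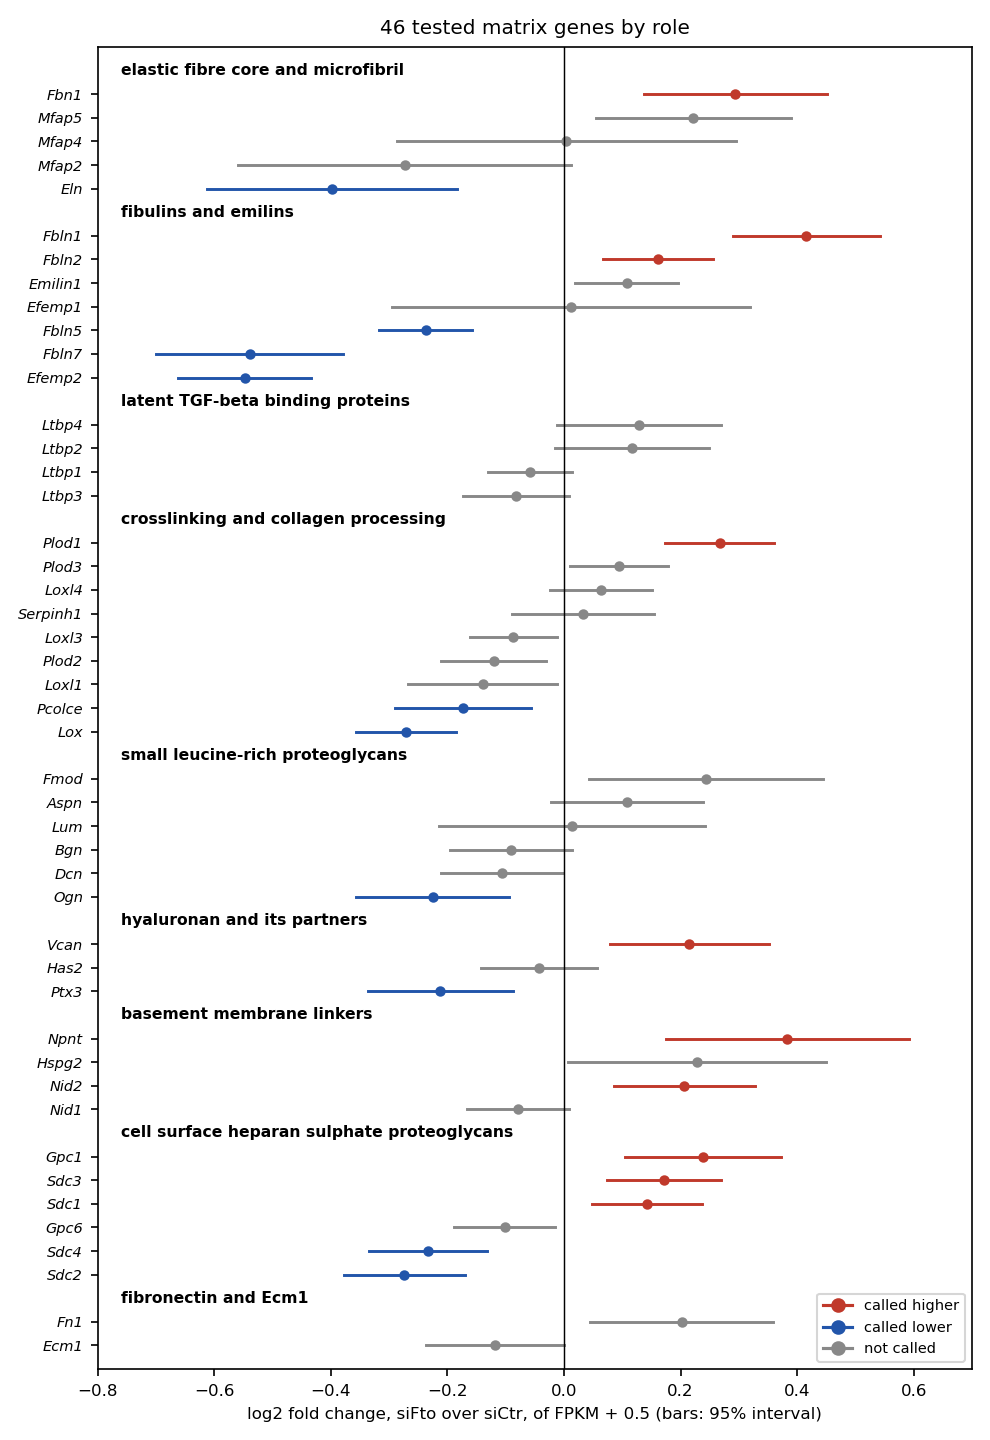
Log2 fold change (siFto over siCtr, x axis) with its 95% limma interval for the 46 tested matrix genes, grouped by role, with called genes coloured. Fibulins and syndecans hold members called in both directions, while the latent TGF-beta binding proteins hold none called.

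Annotated 3′ UTRs were searched for the words GACCTTA and ACCTTAA, because an earlier search of these same data had picked those words for their share among genes that fell; their share is therefore a description here and no separate evidence. The sequences below show where the words stand in the members that hold 1, other than Lox, whose 3′ UTR holds GACCTTA and whose site is not shown. They are GENCODE M21 transcript sequences on GRCm38, 5′ to 3′ on the transcript strand, with the word in capitals.
Sdc2: aaatatgttaACCTTAAcctccacttta
Sdc4: agcagcaggcACCTTAAtgctgacttgt
Ogn: aggttccttcACCTTAAagattctcaaa
Efemp1: caatatcattACCTTAAaactctatttt
Loxl4: aagccacttcACCTTAAacttttgcaat
Sdc1: agccccagcaGACCTTAttactggggta
The sites lie at chr15:33033065-33033092 on the plus strand for Sdc2, chr2:164425982-164426009 on the minus strand for Sdc4 and chr13:49623677-49623704 on the plus strand for Ogn. Those of Efemp1, Loxl4 and Sdc1 lie at chr11:28926365-28926392 (plus), chr19:42594510-42594537 (minus) and chr12:8792350-8792377 (plus).

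Among the 7 members with a word, Sdc2, Lox, Sdc4 and Ogn were called lower, Sdc1 was called higher, and Efemp1 and Loxl4 were not called. Their median log2 fold change was -0.23, against 0.014 for the 39 tested members without a word, of which 9 were called higher and 6 lower. Over all tested genes with an annotated 3′ UTR the medians were -0.061 for 1273 genes with a word and -0.010 for 8526 without, and 25.4% of the genes with a word were called lower against 10.7% of those without. A word stood in 4 of the 10 members called lower (40%) and in 1 of the 10 called higher. Among all tested genes with an annotated 3′ UTR, a word stood in 26.2% of 1233 called lower and 8.35% of 707 called higher. Efemp2, Fbln7 and Eln, the members with the lowest fold changes, hold neither word in the longest annotated 3′ UTR or in any other searched transcript. The joined word GACCTTAA, which 211 tested genes hold and 44.1% of them were called lower, stands in none of the 50 members and once in the coding sequence of each of 4 annotated Fto transcripts. No siRNA sequence was used here, and the part of the word in these changes was not tested. The carriers also have longer 3′ UTRs, with a median of 1839 bases against 966 bases in the other tested members. Over all tested genes the medians were 2652 bases with a word and 1043.5 bases without, and the part of this length in the shares above was not tested.

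**Figure D3:**
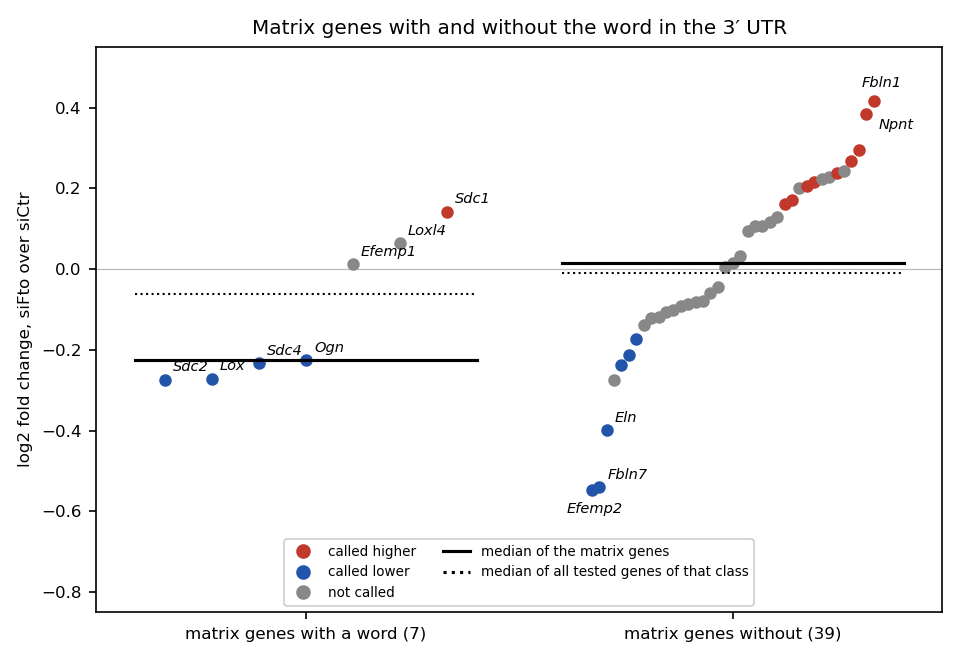
Log2 fold change (siFto over siCtr, y axis) of the 7 tested matrix genes whose 3′ UTR holds GACCTTA or ACCTTAA and of the 39 that hold neither; solid lines are medians of the matrix genes and dotted lines those of all tested genes of that class. The 4 called carriers that fell lie between -0.27 and -0.23, and Efemp2, Fbln7 and Eln lie lower still in the class without a word.

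Elastin and fibrillin-1, the core and the scaffold of the elastic fibre, moved in opposite directions. Eln was low in these cells, with 2.15, 1.63, 2.06 and 2.06 FPKM in siFto libraries, against 2.85, 2.50, 3.16 and 2.53 FPKM in siCtr libraries. Each siFto value lay below each siCtr value, and the log2 fold change was -0.40 (SE 0.096, limma adjusted p = 0.0172). With no filter on low values Eln was not called (0.0731). Fbn1 held 77.9, 75.3, 72.6 and 69.9 FPKM in siFto libraries, against 65.5, 60.4, 51.4 and 64.3 FPKM in siCtr libraries. The groups did not overlap and siCtr3 was the lowest (log2 fold change 0.29, SE 0.071, adjusted p = 0.0168). Fbn1 was not called without siFto1 (0.27, adjusted p = 0.0507). Fbn2, a second fibrillin known from development, was listed at 0 or below 0.01 FPKM in each library.

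The microfibril-associated glycoproteins bind fibrillin, and none passed the test. Mfap5 held 17.6 to 20.5 FPKM in siFto and 13.95 to 18.1 FPKM in siCtr libraries (log2 fold change 0.22, 95% interval 0.055 to 0.39, adjusted p = 0.0638). It was called without siCtr3 (adjusted p = 0.0140), with median-ratio scaling (0.0380) and with quantile normalization (0.0427). Mfap2 ranged from 2.48 to 3.90 FPKM in siFto and from 3.05 to 3.98 FPKM in siCtr libraries (-0.27, interval -0.56 to 0.012, adjusted p = 0.170), and siFto1 was the one siFto library at the siCtr level. Without siFto1 it was called, at -0.40 (adjusted p = 0.0240). Mfap4 averaged 13.8 ± 2.15 FPKM in siFto and 13.8 ± 2.55 FPKM in siCtr libraries, and its interval reached from -0.29 to 0.30.

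The fibulins held 3 genes that fell and 2 that rose. Efemp2, which encodes fibulin-4, an organiser of elastin assembly that binds lysyl oxidase, held 237, 230.0, 240.4 and 239 FPKM in siFto libraries. In siCtr libraries it held 324, 339.6, 386 and 338 FPKM, so the groups stood well apart, with siFto levels at 68.2% of the siCtr mean (log2 fold change -0.55, SE 0.051, limma adjusted p = 0.000123). Fbln7, a cell-adhesive fibulin, held 6.05, 6.29, 7.06 and 6.53 FPKM in siFto libraries, against 11.03, 8.79, 9.74 and 9.12 FPKM in siCtr libraries. It was lower in each siFto library than in each siCtr library (-0.54, SE 0.072, adjusted p = 0.000876). Fbln5, which links elastin to integrins on cells, held 21.5, 21.0, 20.9 and 22.0 FPKM in siFto libraries, against 25.0, 25.6, 26.2 and 24.3 FPKM in siCtr libraries. Its values were tight within groups, and a smaller fold than that of Fbln7 passed the test (-0.24, SE 0.036, adjusted p = 0.00171).

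Fbln1 and Fbln2 moved the other way. Fbln1, a fibulin of elastic fibres and basement membranes, held 47.3, 46.4, 50.7 and 47.6 FPKM in siFto libraries, against 32.9, 39.6, 36.9 and 34.3 FPKM in siCtr libraries. This was the largest rise among the 46 tested members (log2 fold change 0.42, SE 0.057, adjusted p = 0.000919), and the groups did not overlap. Fbln2, the most abundant fibulin here by FPKM, held 689.9, 618, 635 and 648 FPKM in siFto libraries, against 585, 568, 567 and 595 FPKM in siCtr libraries. The rise of 0.16 (SE 0.042, adjusted p = 0.0240) was not called without siFto1, siFto4 or siCtr2 (adjusted p 0.0549 to 0.0762). Efemp1, which encodes fibulin-3, averaged 1.25 ± 0.317 FPKM in siFto and 1.21 ± 0.145 FPKM in siCtr libraries, and its interval reached from -0.29 to 0.32.

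The ratio of Fbln1 to Efemp2 within a library, which does not depend on how the library was scaled, was 0.200, 0.202, 0.211 and 0.199 in siFto libraries, against 0.102, 0.117, 0.0957 and 0.102 in siCtr libraries. The difference of 0.97 on the log2 scale is that of the 2 fold changes above, the highest and the lowest among the tested members. This ratio is 1 of 36 computed within gene families, and being made of the extremes it is a description from which no p-value is read.

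Emilins are glycoproteins at the interface of elastin and microfibrils, and neither was called over the filtered table. Emilin1 held 79.7 to 83.8 FPKM in siFto and 72.0 to 80.4 FPKM in siCtr libraries (log2 fold change 0.11, interval 0.019 to 0.20, limma adjusted p = 0.0851), with siCtr3 at the top of its group. It was called without siCtr3 (0.14, adjusted p = 0.0178), with median-ratio scaling (0.0295) and with quantile normalization (0.0190). Emilin2 lay below the filter, at 1.05, 0.995, 1.02 and 0.9747 FPKM in siFto libraries, against 0.558, 0.514, 0.746 and 0.693 FPKM in siCtr libraries. The groups did not overlap, and in the fit with no filter its log2 fold change was 0.43 (adjusted p = 0.0219).

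The latent TGF-beta binding proteins, some of which tether latent TGF-beta to microfibrils, were not called in either direction. Their log2 fold changes were -0.058 for Ltbp1, 0.12 for Ltbp2, -0.082 for Ltbp3 and 0.13 for Ltbp4, with adjusted p of 0.191 to 0.245. Ltbp1 held 64.2, 68.0, 68.1 and 64.2 FPKM in siFto libraries, against 68.8, 69.2, 68.9 and 68.4 FPKM in siCtr libraries, so the groups did not overlap although the fold was small. Ltbp2 was called without siFto4, its lowest siFto library (0.17, adjusted p = 0.0481). The highest upper bound of the 4 intervals was 0.27, for Ltbp4.

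**Figure D4:**
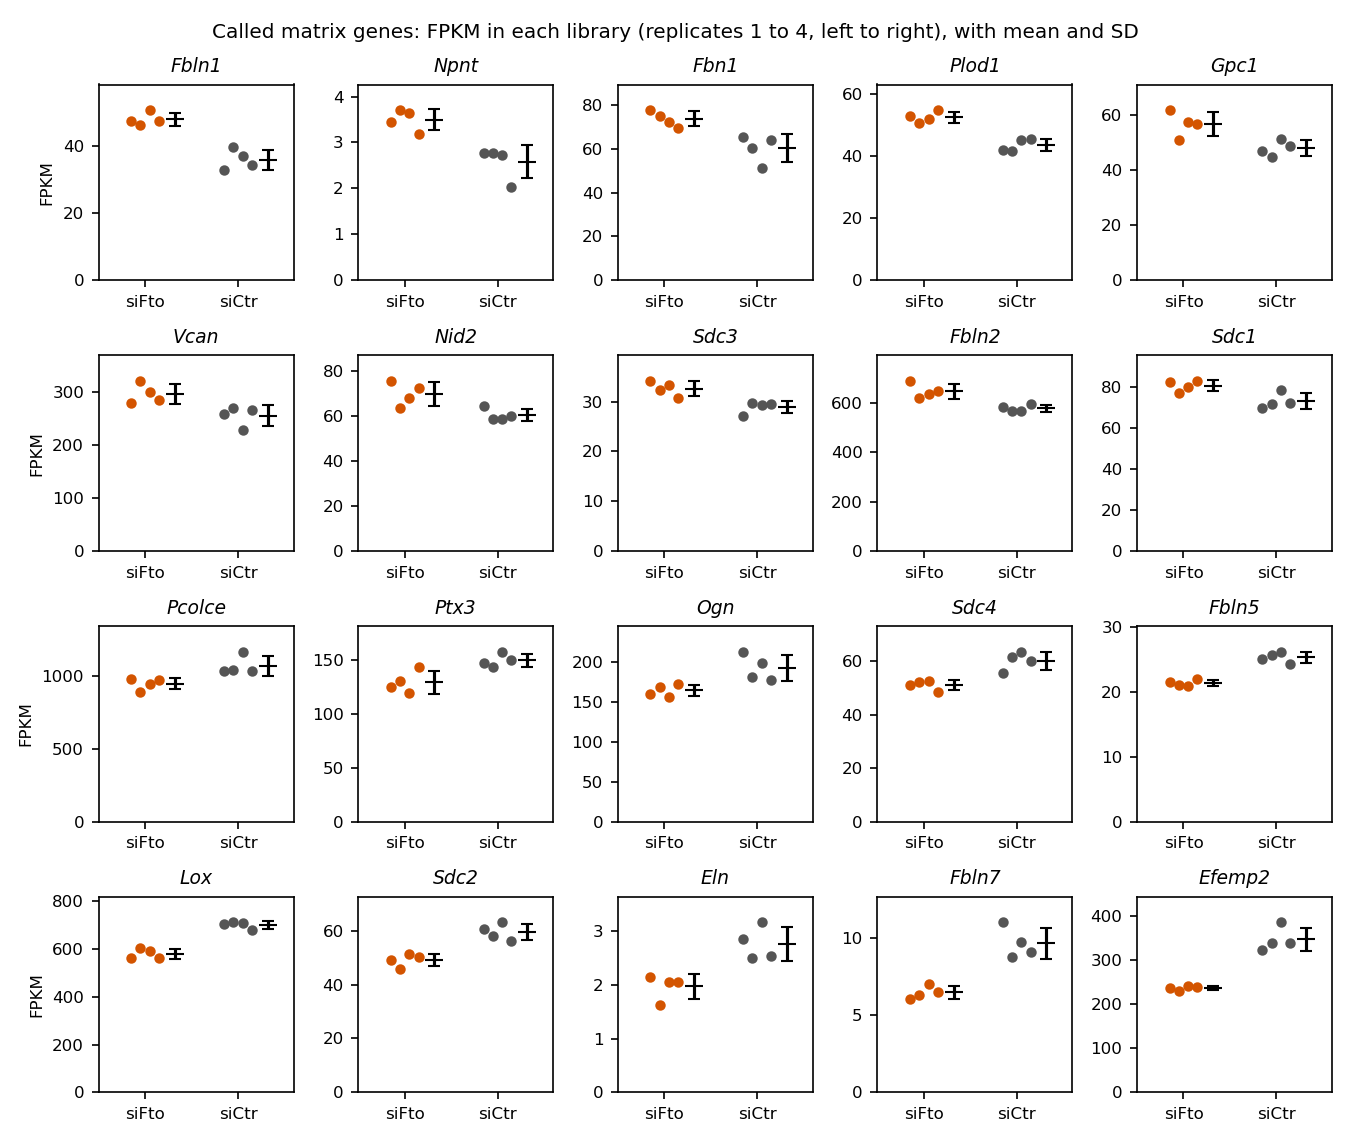
FPKM in each of the 4 siFto and 4 siCtr libraries (points) for the 20 called matrix genes, with the mean and SD beside each group and each y axis starting at 0, ordered from Fbln1 (0.42) to Efemp2 (-0.55). In Sdc1, Gpc1 and Nid2 at least 1 siFto library lies within the siCtr range, and in the other 17 genes the groups do not overlap.

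Lox, the lysyl oxidase that starts elastin and collagen crosslinking, fell, and its relatives did not pass the test. Lox held 565, 604, 592 and 563 FPKM in siFto libraries, against 705, 712, 707 and 679 FPKM in siCtr libraries. The spread within groups was small beside the gap between them (log2 fold change -0.27, SE 0.039, limma adjusted p = 0.00119). Loxl1, an oxidase tied to elastin upkeep, held 139, 128, 134 and 137 FPKM in siFto libraries, against 139.7, 148, 167 and 139.6 FPKM in siCtr libraries. The groups touched without overlapping (-0.14, interval -0.27 to -0.012, adjusted p = 0.120), quantile normalization called it (0.0415), and without siCtr3, its highest library, the fold change was -0.082 (adjusted p = 0.163). Loxl3 stood at -0.087 and Loxl4 at 0.064 on the log2 scale (adjusted p = 0.0984 and 0.293), and Loxl2 stayed between 0.208 and 0.475 FPKM across the 8 libraries.

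Of the lysyl hydroxylases, which modify collagen lysines ahead of crosslinking, Plod1 rose and Plod2 and Plod3 did not pass. Plod1 held 53.0, 50.7, 51.9 and 54.98 FPKM in siFto libraries, against 42.1, 41.6, 45.4 and 45.5 FPKM in siCtr libraries. The lowest siFto value stood above the highest siCtr value (log2 fold change 0.27, SE 0.042, adjusted p = 0.00209). Plod2, the hydroxylase of collagen telopeptides, held 14.2, 15.4, 15.7 and 15.3 FPKM in siFto libraries, against 16.7, 16.8, 16.6 and 16.0 FPKM in siCtr libraries, without overlap but at adjusted p = 0.0637 (-0.12). Plod3 stood 0.095 higher on the log2 scale (adjusted p = 0.110), which median-ratio scaling and quantile normalization called (0.0385 and 0.0317).

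The other collagen processing genes, Pcolce and Serpinh1, were among the most abundant members. Pcolce, the enhancer of procollagen C-proteinase, held 977, 891, 944 and 971 FPKM in siFto libraries, against 1032, 1040.1, 1166 and 1033 FPKM in siCtr libraries. Its fall of 0.17 on the log2 scale (adjusted p = 0.0430) was, among the fits that left out 1 library, called in the one without siCtr3 (0.0435); without siFto1, siFto2, siFto3, siFto4, siCtr1, siCtr2 or siCtr4 the adjusted p was 0.0601 to 0.111. Serpinh1, the collagen chaperone Hsp47, held 774, 683, 721 and 777 FPKM in siFto libraries, against 714, 679.8, 771 and 722 FPKM in siCtr libraries. The groups overlapped throughout (0.033, interval -0.088 to 0.15, adjusted p = 0.722).

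Among the small leucine-rich proteoglycans, which coat collagen fibrils, Ogn was called and 5 were not. Ogn, or osteoglycin, held 161, 169.6, 157 and 172 FPKM in siFto libraries, against 214, 182, 199 and 178 FPKM in siCtr libraries. Each siFto library lay below each siCtr library (log2 fold change -0.23, SE 0.059, limma adjusted p = 0.0238), but not at the threshold without siFto1 or siFto3 (0.0642 and 0.0692). Aspn, which encodes asporin and lies in the same stretch of chromosome 13 as Ogn, held 539, 623, 599 and 636 FPKM in siFto libraries, against 560.1, 546, 592 and 523 FPKM in siCtr libraries, with overlap (0.11, adjusted p = 0.231). Both loci lie within that of Cenpp, which averaged 2.52 FPKM, and no source used here says whether counting kept the strand.

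The most abundant proteoglycan genes did not pass. Bgn held 1986, 2102, 2078 and 2048 FPKM in siFto libraries, against 2085, 2161, 2303 and 2199 FPKM in siCtr libraries (log2 fold change -0.090, interval -0.19 to 0.014, adjusted p = 0.214). Its groups overlapped at siCtr1, and quantile normalization called it (-0.15, 0.0126). Dcn, the decorin gene, held 719, 714, 762 and 767 FPKM in siFto libraries, against 827, 792, 825 and 745 FPKM in siCtr libraries (-0.11, adjusted p = 0.146), where siCtr4 lay among the siFto values. Fmod, the fibromodulin gene, averaged 12.0 ± 1.78 FPKM in siFto and 10.0 ± 0.652 FPKM in siCtr libraries (0.24, interval 0.043 to 0.44, adjusted p = 0.0865), and without siFto2 the fold change was 0.16 (0.178). Lum, the lumican gene, averaged 15.1 ± 2.61 and 14.8 ± 1.11 FPKM in siFto and siCtr libraries.

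Versican and pentraxin 3, which both associate with hyaluronan, moved in opposite directions. Vcan held 279.5, 320.5, 299 and 283 FPKM in siFto libraries, against 258, 269, 227 and 265 FPKM in siCtr libraries. The groups did not overlap and siCtr3 was lowest (log2 fold change 0.22, SE 0.062, limma adjusted p = 0.0348), and the call was not made without siFto2, siFto3, siCtr1 or siCtr4 (0.0505 to 0.0877) nor in limma without a variance trend (0.0519). Ptx3, a pentraxin that crosslinks hyaluronan-rich matrix, held 124, 131, 119 and 143 FPKM in siFto libraries, against 147, 143, 158 and 149.6 FPKM in siCtr libraries. Its siFto4 and siCtr2 values nearly met (143.4 and 143.5 FPKM), and the fall of 0.21 on the log2 scale (adjusted p = 0.0249) was not called without siFto1, siFto2, siFto3 or siCtr4 (0.0503 to 0.0687). The Ptx3 locus lies in that of Veph1, which averaged 0.246 FPKM.

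Hyaluronan synthase genes showed no called change. Has2 averaged 30.9 ± 1.66 FPKM in siFto and 31.9 ± 1.17 FPKM in siCtr libraries (log2 fold change -0.043, interval -0.14 to 0.057, adjusted p = 0.551), and its locus overlaps the antisense gene Has2as. Has1 lay below the filter, at 0.148, 0.152, 0.198 and 0.0983 FPKM in siFto libraries, against 0.281, 0.220, 0.210 and 0.3004 FPKM in siCtr libraries. These did not overlap, and the fit with no filter gave -0.21 (adjusted p = 0.106).

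Among the basement membrane linkers, Npnt and Nid2 rose, while Nid1 and Hspg2 did not pass. Npnt, or nephronectin, an integrin ligand, held 3.46, 3.71, 3.65 and 3.18 FPKM in siFto libraries, against 2.78, 2.77, 2.74 and 2.04 FPKM in siCtr libraries. The groups did not overlap, siCtr4 was the lowest library (log2 fold change 0.38, SE 0.094, limma adjusted p = 0.0181), and the call was just missed without siFto2 (0.0508). Nid2 held 75.5, 63.5, 67.8 and 72.3 FPKM in siFto libraries, against 64.2, 58.8, 58.3 and 60.1 FPKM in siCtr libraries. Here siFto2 lay under siCtr1 (0.21, SE 0.055, adjusted p = 0.0250), and without siFto1, siFto4, siCtr2 or siCtr4 the adjusted p was 0.0593 to 0.0709. Its locus overlaps 2700060E02Rik, which averaged 53.6 FPKM, and which of the 2 genes gave a read in the shared stretch is not known. Nid1, the nidogen-1 gene, held 288, 290.1, 285 and 272 FPKM in siFto libraries, against 314, 297, 285 and 304 FPKM in siCtr libraries, with overlap (-0.079, adjusted p = 0.197).

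The syndecans, transmembrane carriers of heparan sulphate, were all 4 called, with Sdc1 and Sdc3 higher and Sdc2 and Sdc4 lower. Sdc2 held 49.1, 45.9, 51.3 and 50.3 FPKM in siFto libraries, against 60.8, 58.0, 63.1 and 56.1 FPKM in siCtr libraries (log2 fold change -0.27, SE 0.047, limma adjusted p = 0.00351). Sdc4, the syndecan of focal adhesions, held 51.2, 52.0, 52.6 and 48.5 FPKM in siFto libraries, against 55.7, 61.5, 63.5 and 59.9 FPKM in siCtr libraries (-0.23, SE 0.045, adjusted p = 0.00626). In both genes the groups stood apart. Both hold ACCTTAA in the sites shown above, as do Ogn, which was called lower, and Efemp1 and Loxl4, which were not called. Sdc1, which was called higher, holds GACCTTA, as does Lox, which was called lower. Sdc3 held 34.2, 32.3, 33.3 and 30.6 FPKM in siFto libraries, against 27.1, 29.6, 29.2 and 29.5 FPKM in siCtr libraries (0.17, adjusted p = 0.0222), without overlap. Sdc1 held 82.3, 77.3, 80.1 and 83.1 FPKM in siFto libraries, against 69.7, 71.7, 78.6 and 72.3 FPKM in siCtr libraries (0.14, adjusted p = 0.0412), and siCtr3 lay within the siFto range.

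The calls of Sdc2 and Sdc4 were made without each library in turn, and those of Sdc1 and Sdc3 were not. Sdc3 was not called without siFto1, siFto3 or siCtr1 (adjusted p 0.0533 to 0.0615), and Sdc1 not without siFto1, siFto3, siFto4, siCtr1, siCtr2 or siCtr4 (0.0794 to 0.107) nor in limma without a variance trend (0.0638).

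Glypicans are heparan sulphate carriers held by a lipid anchor. Gpc1 held 61.9, 51.1, 57.4 and 56.9 FPKM in siFto libraries, against 46.9, 44.8, 51.5 and 48.9 FPKM in siCtr libraries, with siFto2 just inside the siCtr range (log2 fold change 0.24, SE 0.060, limma adjusted p = 0.0203). It was not called without siFto1, siFto3, siCtr1 or siCtr2 (0.0513 to 0.0608). Gpc6 averaged 23.6 ± 0.969 FPKM in siFto and 25.3 ± 0.670 FPKM in siCtr libraries (-0.10, adjusted p = 0.0949) and was called without siFto2 (-0.13, 0.0454).

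Fibronectin, the first fibrillar matrix on which fibrillin and fibulins are laid down, did not pass. Fn1 held 367, 365, 344 and 324 FPKM in siFto libraries, against 317, 303, 264 and 335 FPKM in siCtr libraries. siFto4 lay below siCtr4, so the groups overlapped (log2 fold change 0.20, interval 0.045 to 0.36, adjusted p = 0.0716), and without siCtr4 it was called (0.25, 0.0439). Ecm1, a secreted matrix glycoprotein, averaged 36.5 ± 1.19 FPKM in siFto and 39.7 ± 3.08 FPKM in siCtr libraries (-0.12, adjusted p = 0.156), and without siCtr1, its lowest siCtr library, it was called (-0.16, 0.0439), while without siCtr3, its highest, the fold change was -0.073 (0.278).

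The 4 members with transcripts over 7 kb, Fn1, Fbn1, Vcan and Hspg2, had log2 fold changes of 0.20 to 0.29, and siCtr3 was the lowest library in each. Hspg2, which encodes perlecan, the large heparan sulphate proteoglycan of basement membranes, held 108, 105, 100.5 and 88.2 FPKM in siFto libraries, against 94.4, 89.3, 68.5 and 92.5 FPKM in siCtr libraries (0.23, interval 0.0076 to 0.45, limma adjusted p = 0.140). Over all tested genes siCtr3 also went with transcript length: its median distance from the other siCtr libraries was 0.13 on the log2 scale for 2409 genes with a longest transcript under 2 kb and -0.17 for 845 genes over 7 kb. The median siFto to siCtr fold change of all genes over 7 kb was -3.4e-04, and -0.048 without siCtr3, against 0.22 and 0.15 for the 4 members. Without siCtr3 Fbn1 had 0.22 (adjusted p = 0.00903), Vcan 0.16 (0.0420), Fn1 0.14 (0.0947) and Hspg2 0.12 (0.202). The 7 members under 2 kb were Mfap2, Mfap5, Pcolce, Mfap4, Dcn, Ptx3 and Ecm1, and they ranged from -0.27 (Mfap2) to 0.22 (Mfap5). Their median was -0.12, and -0.089 without siCtr3, against -0.025 and 0.0057 over all tested genes under 2 kb.

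**Figure D5:**
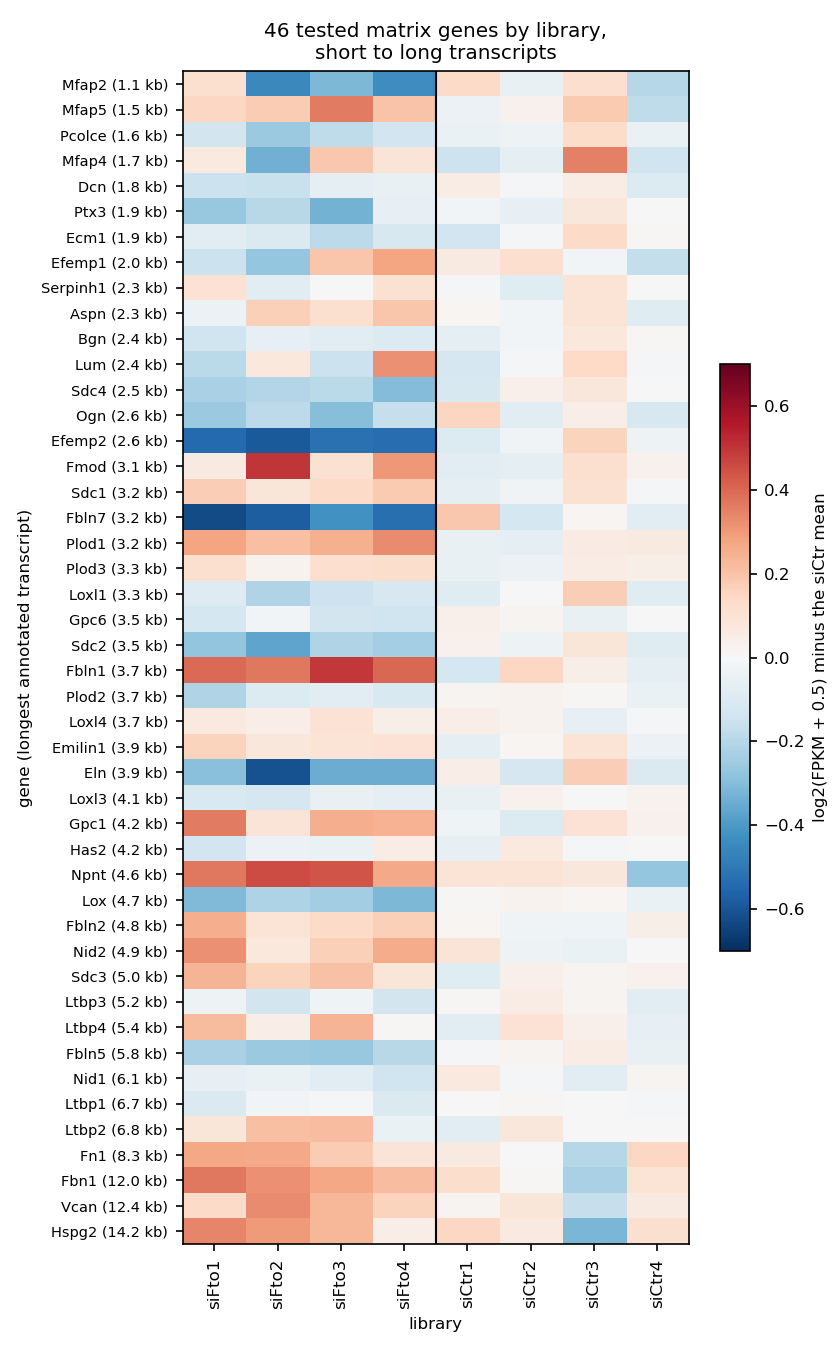
Each row is 1 of the 46 tested matrix genes, from the shortest to the longest annotated transcript, and each column is a library; colour gives log2(FPKM + 0.5) minus the siCtr mean of that gene. Efemp2 and Fbln7 are low in the 4 siFto libraries, and siCtr3 is the lowest library for the 4 longest transcripts at the bottom.

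A wider list of 113 further genes of elastic fibres, collagen processing, proteoglycan cores and glycosaminoglycan enzymes gave 67 tested genes. Of these 8 were called higher and 11 lower (11.9% and 16.4%, against 6.97% and 12.3% of all tested genes), with a median log2 fold change of -0.012 against -0.017. These shares lie near those over all tested genes, and the genes below are given as values. The sublist set beside elastic fibres and microfibrils had 7 tested genes and also takes in the matrilins Matn2 and Matn4. In it, Matn2 averaged 160 ± 5.30 FPKM in siFto and 129 ± 2.95 FPKM in siCtr libraries (0.31, limma adjusted p = 0.000379). Adamtsl4, an ADAMTS-like protein of fibrillin microfibrils, had a log2 fold change of 0.26, while Matn4 and Mfap3 fell by 0.13 and 0.14. Of 16 genes of collagen processing 3 rose and 2 fell (18.75% and 12.5%, against 6.97% and 12.3% of all tested genes). The prolyl hydroxylase subunit P4ha1 stood at 0.19 and the chaperone Fkbp10 at 0.17, against the prolyl 3-hydroxylase Leprel2 at -0.23 and the cyclophilin Ppib at -0.19.

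Of 11 further proteoglycan cores, Prelp and Agrn were called, both lower (18.2%, against 12.3% of all tested genes called lower). Prelp, a leucine-rich repeat protein, averaged 45.6 ± 1.59 FPKM in siFto and 52.6 ± 1.46 FPKM in siCtr libraries (log2 fold change -0.20, limma adjusted p = 0.00434), and Agrn, the agrin gene, had -0.26. Of 33 enzymes and partners of glycosaminoglycans and hyaluronan, 3 rose and 5 fell (9.09% and 15.2%, near the shares over all tested genes). The rises were those of Csgalnact1 (0.14), Sulf2 (0.15) and Ext2 (0.12), named after their values were seen. The falls included Hs2st1, the heparan sulphate 2-O-sulphotransferase, with 15.005 ± 0.488 FPKM in siFto and 18.2 ± 0.329 FPKM in siCtr libraries (-0.27, adjusted p = 0.000875). Tnfaip6, whose product TSG-6 loads heavy chains onto hyaluronan beside pentraxin 3, averaged 8.83 ± 1.23 FPKM in siFto and 11.8 ± 0.557 FPKM in siCtr libraries (-0.41, adjusted p = 0.00851). The hyaluronidase gene Hyal2 fell by 0.28 on the log2 scale and the heparan sulphate N-sulphotransferase gene Ndst2 by 0.21.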

How the data were processed

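Total RNA of 8 libraries was sequenced; the submitters' processing notes name TopHat2 2.0.11, Cufflinks 2.2.1 and the mm9 build. The authors deposited FPKM with Cufflinks bounds in 1 table per library, per the file headers; no source used here gives the annotation or the strand setting. FPKM is scaled for length and depth and holds no counts, so no count test was run, and the depth in reads is unknown. siFto was set against siCtr in limma 3.58.1 (R 4.3.3) on log2(FPKM + 0.5), with a trend in the prior variance, over 11398 rows with a mean FPKM of at least 1, two-sided, with Benjamini-Hochberg adjustment over that whole table and a threshold of 0.05. The fit was tested on simulated data. The members, lists and tests were chosen with earlier results of these data known. The wider gene list is described by the called genes with the lowest p, up to 4 per sublist; each member is named, with values per library for called members, the 8 most abundant uncalled ones and, chosen after their values were seen, others whose groups did not overlap. Length and 3′ UTR words come from GENCODE M21 (GRCm38): for each gene, the longest 3′ UTR of at least 50 bases among protein-coding transcripts. The 36 ratios within gene families, of which Fbln1 to Efemp2 is shown, and the length classes of 2, 4 and 7 kb were added after the data were seen. Tables compiled by the authors were not used. Python 3.11.15, scipy 1.17.1, pandas 2.3.3 and matplotlib 3.10.9 did the rest. Alternatives changed the pseudocount, filter, scaling, trend, block and libraries.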

Additional observations from a re-analysis of the deposited data

Results flagged for a closer look

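In 94 groups of 4 libraries checked (46 members and Fto), 6 held a library far from the other 3 in FPKM, where chance flags about 1 in 20 groups. For Mfap4, siCtr3 held 17.6 FPKM and the next siCtr library 13.0 FPKM. For Pcolce, siCtr3 held 1166 FPKM and the next 1040.1 FPKM. For Npnt, siCtr4 held 2.04 FPKM and the next 2.74 FPKM. For Sdc3, siCtr1 held 27.1 FPKM and the next 29.2 FPKM. For Plod3, siFto2 held 66.8 FPKM and the next siFto library 71.0 FPKM. For Gpc6, siFto2 held 25.0 FPKM and the next 23.2 FPKM, and without siFto2 the gene was called lower.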

How the results depend on the processing

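With no filter on low values, 23699 rows were tested and 485 genes were called higher and 839 lower, among them 3 and 6 members. In fits without 1 library, members called higher numbered 4 to 12 and lower 7 to 10, and their median log2 fold change was -0.051 to 0.031. Direction turned for Mfap4 (-0.058 to 0.12), Efemp1 (-0.076 to 0.11) and Lum (-0.087 to 0.081), none of them called. Pseudocounts of 0.1 and 1 each gave 10 and 10 members, and a filter at 5 FPKM 9 and 9. Same-numbered libraries did not deviate together (correlations -0.19 to 0.074), so the number was not taken as a pairing; with it as a replicate block, 9 members were higher and 8 lower, Pcolce (adjusted p = 0.0683), Ogn (0.0561), Sdc1 (0.0693) and Sdc3 (0.0589) were not called, and Mfap5 was (0.0246). Libraries of a group lay a median of 0.897 to 1.52 Cufflinks standard errors apart, and the 3 pairs with siCtr3 at 1.28 or more. The cause of these shifts was not tested.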
